A study of Mus musculus with 6 samples.

Results

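Collagens and the enzymes and chaperones that modify them were picked from the gene table by name. The rule took every gene named as a collagen chain (Col, a type number, a and a chain number) together with the prolyl and lysyl hydroxylases P4ha1 to P4ha3, P3h1 to P3h4 and Plod1 to Plod3, and with Crtap, Colgalt1 and Colgalt2, Fkbp10, Serpinh1, Pcolce, Pcolce2 and the older Leprel names. It found 41 of the 11773 listed genes: 7 fibrillar chains, 7 network-forming chains, 4 beaded-filament chains, 7 fibril-associated or basement-membrane-associated chains and 16 enzymes, chaperones and enhancers. Polyadenylated RNA of 2H11 cells, a mouse line labelled endothelial and derived from a C3H/HeJ lymph node, was sequenced from both ends. In 3 libraries the cells had been starved and then exposed for 48 h to BMP4 (bone morphogenetic protein 4, a growth factor that drives bone and cartilage formation) together with palovarotene, an agonist of the retinoic acid receptor gamma. In the other 3 libraries the starved cells had received BMP4 alone for the same time. Both groups therefore carried BMP4, and no group without it is analysed here. The doses are not given in the labels, and the cells are 1 line. The labels do not say whether replicates were separate cultures, so the p-values measure the spread between libraries only, which may be technical.

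Collagens are triple helices of chains whose repeating glycines and hydroxylated prolines hold the helix together. Fibrillar types I, III, V and XI form the load-bearing fibrils, type IV forms the sheet of basement membranes, type VI forms beaded microfilaments, and types such as XII and XIV sit on the surface of fibrils. Chains are hydroxylated and glycosylated in the endoplasmic reticulum, folded with dedicated chaperones, exported, trimmed at their ends and crosslinked outside the cell. Chains that share a trimer are made from separate genes, some of which lie head to head in the genome.

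Levels are given as FPKM, fragments relative to transcript length and sequencing depth, as the authors deposited them. Changes are differences of the means of log2(FPKM + 1), BMP4 + palovarotene minus BMP4, with the standard error (SE) of the limma fit and a p-value adjusted by Benjamini-Hochberg over all genes tested. A gene was tested when its mean over the 6 libraries reached 0.5 FPKM, and it was called at an adjusted p below 0.05. The table lists only genes whose higher group mean was at least 0.5 FPKM (the lowest was 0.5004), so a gene near that level in 1 group is listed because of that group. Per library the gene table totalled 247754 to 249809 FPKM with palovarotene, against 244119 to 251290 FPKM without it. Of 15 endothelial markers, 4 are listed. Tek, Flt1 and Vwf were lower with palovarotene, Egfl7 was not called, and the summed level of the 4 was 3.05 to 3.39 FPKM with BMP4 + palovarotene, against 8.02 to 8.34 FPKM with BMP4. Vwf was listed and tested only because of its BMP4 libraries. The other 11, Pecam1, Cdh5 and Kdr among them, are not analysed here. All 8 fibroblast markers are listed, at sums of 260.0 to 264 FPKM with palovarotene and 293 to 311 FPKM without it. Of these, Fap and Pdgfra were higher and the other 6 lower, and Dcn alone accounted for 158 to 165 FPKM with palovarotene and 171 to 187 FPKM without it. Dpt, among the lower ones, was listed and tested only because of its BMP4 libraries. Dcn changed by only -0.15 (limma adjusted p = 0.0341). It did not pass without any 1 palovarotene library or without BMP4 replicate 2 or 3 (limma adjusted p 0.0756 to 0.112). Of 7 smooth muscle and pericyte markers, 5 are listed and summed to 125 to 132 FPKM with palovarotene, against 259 to 264 FPKM with BMP4 alone, with Des higher and the other 4 lower. What these shifts contribute to the collagen values was not tested, and in such bulk libraries fewer cells of a type and less RNA per cell cannot be told apart.

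The stretches of DNA just upstream of 7 genes are printed because these genes carry the main results below: the collagen VI trio that fell together, the neighbours Col4a5 and Col4a6 that rose together, and the 2 enzyme genes with the largest called rise and fall. They were read from RefSeq promoter windows on GRCm38.p6 and cut to the bases outside annotated exons. Each runs 5′ to 3′ on the strand of its gene. Capitals mark matches on either strand to 4 motifs: AGGTCA, the half-site of nuclear receptors; GGGCGG, the GC box; CCAAT, the CCAAT box; and TATAAA, the TATA box. Col4a5 lies at chrX:141475169-141475384 (plus strand), Col4a6 at chrX:141474077-141474326 (minus), Col6a1 at chr10:76726169-76726294 (minus), Col6a2 at chr10:76623631-76623880 (minus), Col6a3 at chr1:90843972-90844221 (minus), P4ha1 at chr10:59323046-59323295 (plus) and Pcolce2 at chr9:95637378-95637600 (plus).
Col4a5: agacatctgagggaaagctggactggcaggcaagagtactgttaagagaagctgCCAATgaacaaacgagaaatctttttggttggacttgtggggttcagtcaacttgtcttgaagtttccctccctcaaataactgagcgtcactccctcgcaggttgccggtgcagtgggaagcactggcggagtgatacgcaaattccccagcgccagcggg
Col4a6: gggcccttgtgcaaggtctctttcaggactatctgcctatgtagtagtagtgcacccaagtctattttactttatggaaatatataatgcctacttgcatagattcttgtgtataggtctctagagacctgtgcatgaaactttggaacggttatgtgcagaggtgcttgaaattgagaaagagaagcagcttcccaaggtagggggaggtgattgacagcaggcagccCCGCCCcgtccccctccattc
Col6a1: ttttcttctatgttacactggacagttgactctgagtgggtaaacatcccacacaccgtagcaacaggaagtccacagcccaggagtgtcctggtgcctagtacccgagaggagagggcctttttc
Col6a2: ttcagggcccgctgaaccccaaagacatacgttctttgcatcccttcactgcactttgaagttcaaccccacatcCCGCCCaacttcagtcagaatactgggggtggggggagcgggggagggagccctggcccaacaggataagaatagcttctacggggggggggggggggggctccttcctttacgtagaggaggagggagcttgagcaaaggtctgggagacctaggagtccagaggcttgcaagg
Col6a3: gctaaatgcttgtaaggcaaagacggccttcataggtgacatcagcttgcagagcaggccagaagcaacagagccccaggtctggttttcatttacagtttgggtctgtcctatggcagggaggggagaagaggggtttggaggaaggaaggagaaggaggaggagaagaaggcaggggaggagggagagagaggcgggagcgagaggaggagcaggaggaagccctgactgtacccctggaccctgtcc
P4ha1: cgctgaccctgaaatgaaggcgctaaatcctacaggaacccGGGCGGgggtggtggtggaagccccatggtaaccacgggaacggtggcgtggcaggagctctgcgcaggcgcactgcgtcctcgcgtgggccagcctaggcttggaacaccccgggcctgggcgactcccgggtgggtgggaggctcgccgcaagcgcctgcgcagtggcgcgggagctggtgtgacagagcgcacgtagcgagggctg
Pcolce2: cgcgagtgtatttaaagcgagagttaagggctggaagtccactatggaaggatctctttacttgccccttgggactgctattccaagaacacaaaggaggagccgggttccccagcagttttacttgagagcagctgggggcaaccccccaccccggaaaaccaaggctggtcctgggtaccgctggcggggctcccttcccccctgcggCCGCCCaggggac
In these stretches the CCAAT letters occur once in Col4a5, the GC box letters once each in Col4a6, Col6a2, P4ha1 and Pcolce2, and no searched motif in Col6a1 or Col6a3. Windows of 300 bases were found for 32 of the 41 members, 36 windows in all. AGGTCA occurred in 3 of the 36 member windows (8.33%), those of Col11a1, Col7a1 and P3h1, against 16.3% of 32851 windows of all genes. GGGCGG occurred in 27 (75%) against 35.7%, CCAAT in 12 (33.3%) against 37.4%, and TATAAA in 5 (13.9%) against 13.6%. The windows of all genes were not limited to genes listed here, as those of the members were, so these shares are not from matched sets. These are counts of letters in a window and say nothing of binding. Col1a1, Col14a1, Col12a1, Col5a2, Col9a3, Fkbp10, P3h2, P3h4 and Plod2 have no window in the table.

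The collagen genes moved in both directions, and the largest log2 fold changes lay outside the major fibrillar chains. In FPKM the largest change was that of Col1a1, with means of 684 FPKM with palovarotene and 523 FPKM with BMP4. Type VI collagen fell as a whole, the basement-membrane pair Col4a1 and Col4a2 fell while the pair Col4a5 and Col4a6 rose, and the fibril-surface collagen gene Col14a1 rose 5.45-fold in mean FPKM. Among the enzymes, the C-propeptide enhancer gene Pcolce2 fell to between 16.1 and 17.3 FPKM with palovarotene, against 85.04 to 88.9 FPKM with BMP4 alone. Of 39 members tested, 11 were called higher, 17 lower and 11 neither. Over all 11584 genes tested, 19.1% were called higher, 23.8% lower and 43.0% in either direction, beside 28 of the 39 members (71.8%). The groups did not overlap in 30 of the 39, 11 above and 19 below, against 54.9% of all genes. Of the 39, 6 were called with a change of at least 2-fold on the log2 scale, against 3.73% of all genes: Col14a1, Col6a2, Col6a3, Col18a1, P3h2 and Pcolce2. Among the lower calls, P3h2 and Col9a3 were listed and tested only because of their BMP4 libraries, so their place in these counts is not independent of that filter. The median change of the members was -0.13 and their median size of change 0.39, against -0.03 and 0.18 over all genes. The number of higher calls depended on single libraries: it was 6 without replicate 1 of BMP4 + palovarotene, 7 without its replicate 2 or 3, 7 without replicate 3 of BMP4, 8 without its replicate 2 and 12 without its replicate 1. The lower calls numbered between 16 and 18 over these 6 refits.

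**Figure D1:**
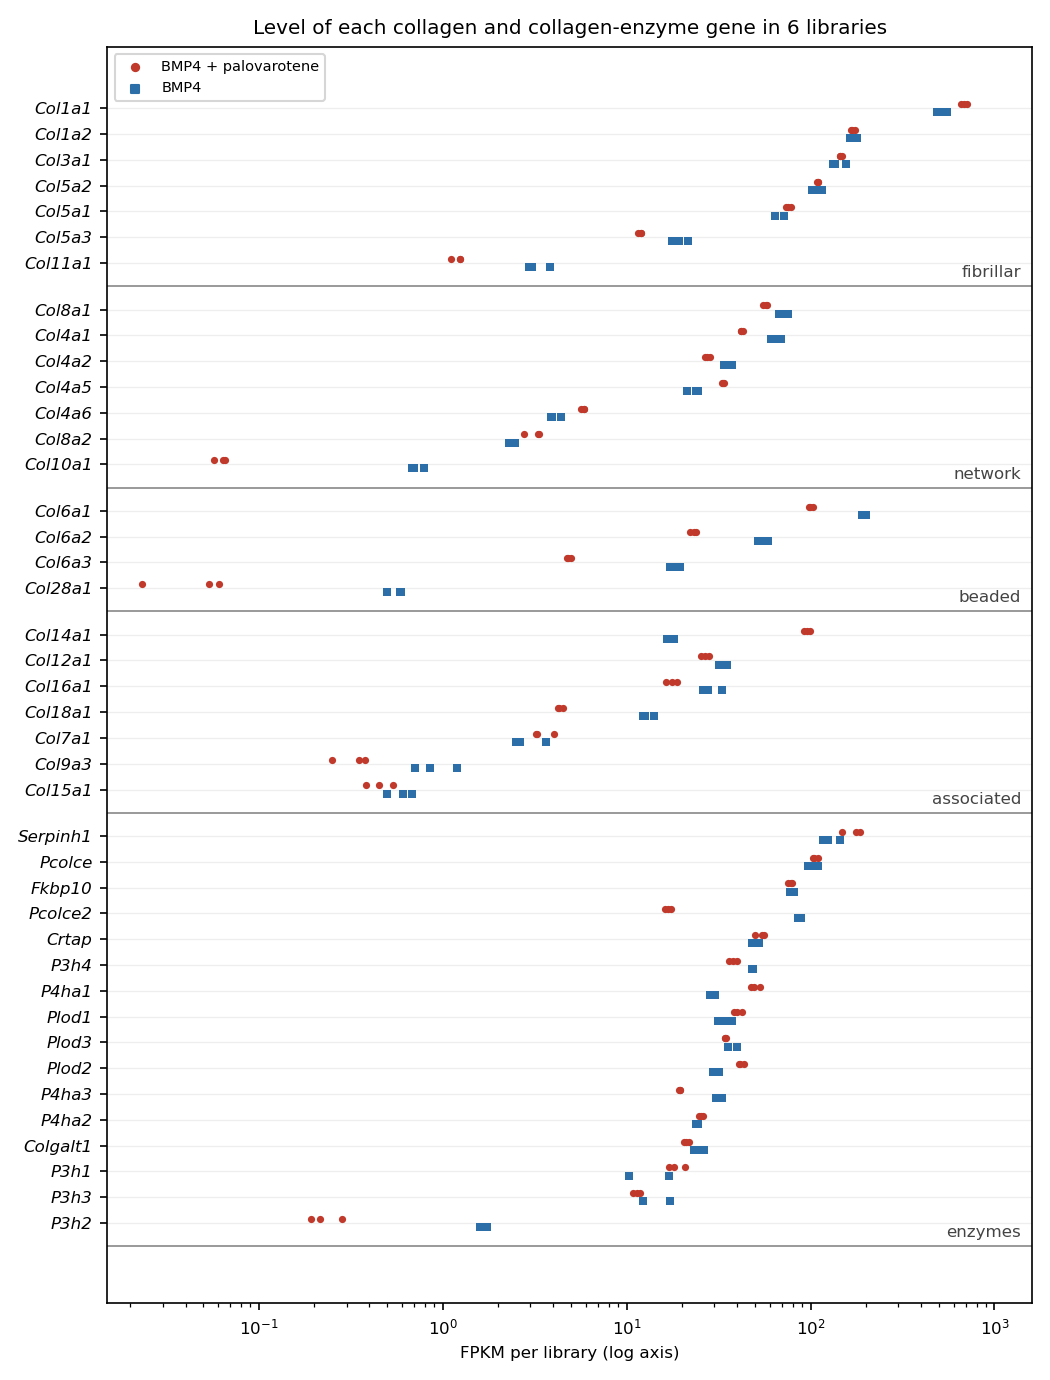
FPKM of each of the 41 genes in the 6 libraries, on a log axis, by class and by falling mean level. Red circles are BMP4 + palovarotene and blue squares are BMP4, 3 libraries each. Levels span from 0.0231 FPKM (Col28a1) to 710.5 FPKM (Col1a1), and red and blue points do not overlap in 30 of the 39 tested genes.

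**Figure D2:**
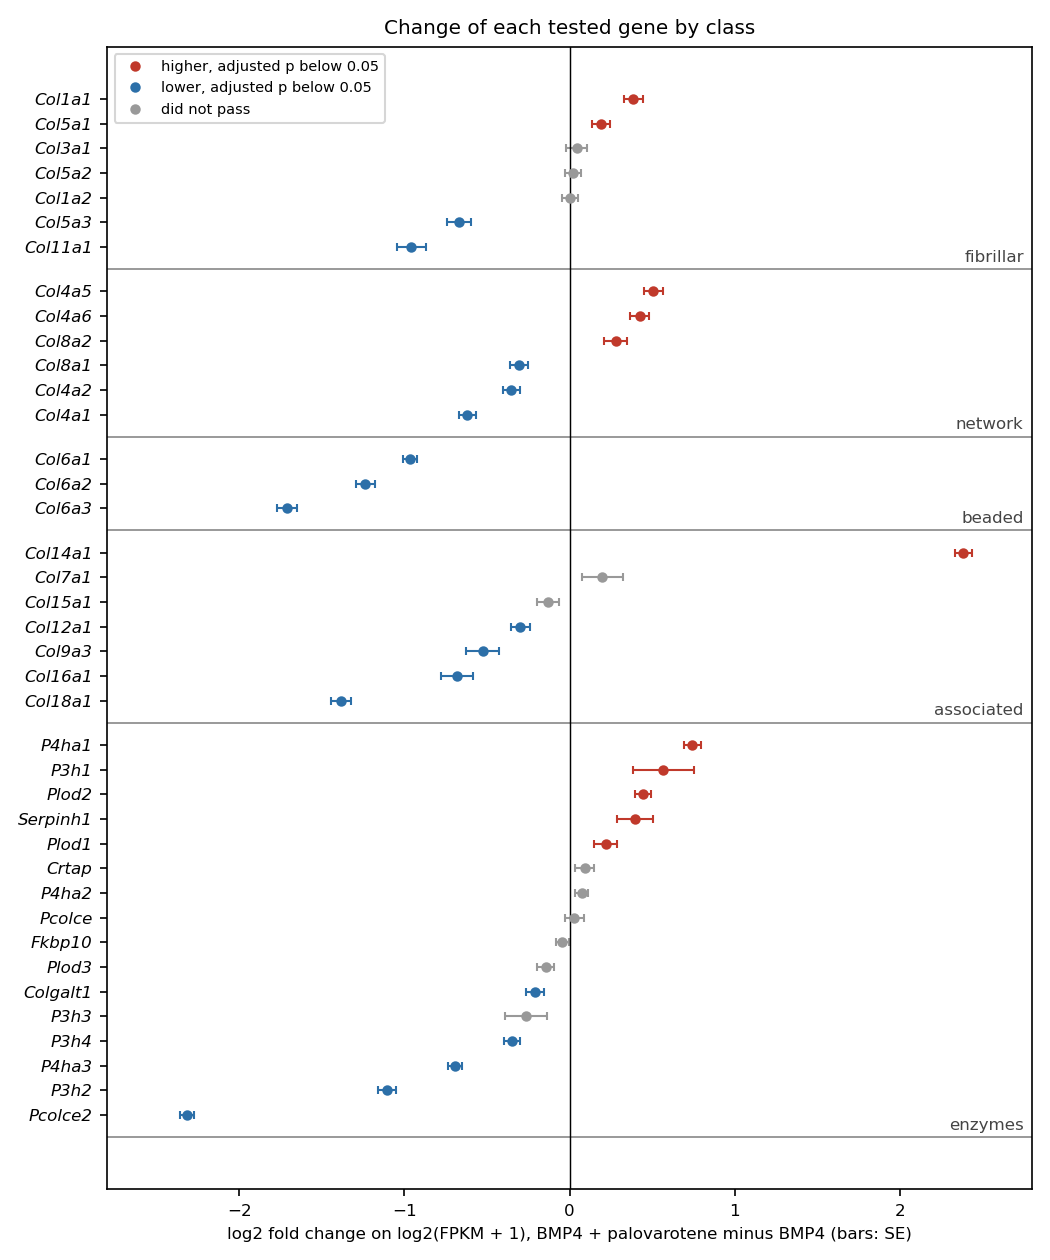
Change of each of the 39 tested genes on log2(FPKM + 1), BMP4 + palovarotene minus BMP4, with SE bars, by class. Red points passed as higher, blue as lower and grey did not pass. The beaded class holds no red point, the network class holds 3 of each colour, the associated class spans from Col18a1 at -1.39 to Col14a1 at 2.38, and the enzymes span from Pcolce2 at -2.32 to P4ha1 at 0.74.

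Of the 7 fibrillar chains, 2 were higher, 2 lower and 3 not called (57.1% called, against 43.0% of all genes). Col1a1, the major chain of type I collagen (chromosome 11, 94936224 to 94953042), had 661, 710.5 and 680 FPKM in the BMP4 + palovarotene libraries, against 552, 487 and 530 FPKM in the BMP4 libraries (log2 fold change 0.39, SE 0.0576, limma adjusted p = 0.00183). Every palovarotene library lay above every BMP4 library. Col1a2, which supplies the other chain of the type I trimer (chromosome 6, 4504814 to 4541544), had 166, 174 and 168 FPKM with palovarotene and 178, 163 and 166 FPKM with BMP4 alone (0.00, SE 0.0471, adjusted p = 0.964). Its libraries overlapped fully, so the genes of the 2 chains of type I collagen did not move in parallel. Col3a1, the chain of type III collagen, gave 145, 147 and 145 FPKM with palovarotene, against 156, 133 and 136 FPKM with BMP4 (0.04, SE 0.0631, adjusted p = 0.614). BMP4 replicate 1 was the highest of its group, and without it Col3a1 passed at 0.11 (adjusted p = 0.0401).

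Type V and XI chains, which nucleate fibrils and limit their width, split. Col5a1 had 73.8, 78.0 and 75.8 FPKM with palovarotene and 71.6, 63.7 and 64.1 FPKM with BMP4 (0.19, SE 0.0558, adjusted p = 0.0313). The groups did not overlap, but the call was lost in 7 of 13 alternative settings, with adjusted p between 0.0595 and 0.0987. Among those settings were quantile normalization and the removal of any library other than BMP4 replicate 1. Col5a2 had 109, 110.5 and 109 FPKM against 115, 108 and 102 FPKM in the BMP4 libraries (0.02, SE 0.051, adjusted p = 0.773), with overlapping groups. Col5a3, the third and least abundant type V chain, had 11.96, 11.98 and 11.6 FPKM with palovarotene, against 21.5, 17.7 and 19.2 FPKM with BMP4 (-0.67, SE 0.0719, adjusted p = 0.0004). Col11a1, best known from cartilage fibrils, had 1.24, 1.12 and 1.24 FPKM with palovarotene and 3.86, 2.95 and 3.05 FPKM with BMP4 (-0.96, SE 0.0871, adjusted p = 0.000178). In both of these minor chains all palovarotene libraries were below all BMP4 libraries.

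The network-forming class divided evenly, with 3 of 6 tested members higher and 3 lower (100% called, against 43.0% of all genes). Col4a1 and Col4a2 encode the chains of the trimer present in nearly all basement membranes and are neighbours on chromosome 8, transcribed away from each other with 22 bases of annotated overlap. Col4a1 (11198423 to 11312826) had 41.6, 43.0 and 41.7 FPKM with palovarotene, against 69.0, 61.3 and 65.7 FPKM with BMP4 (-0.62, SE 0.0519, adjusted p = 0.00012). Col4a2 (11312805 to 11449287) had 27.4, 28.4 and 26.8 FPKM with palovarotene and 37.6, 34.0 and 34.8 FPKM with BMP4 (-0.35, SE 0.0515, adjusted p = 0.00169). Both were lower in every palovarotene library, Col4a1 more so than Col4a2. The other type IV pair, Col4a6 and Col4a5, joins a network found in the basement membranes of smooth muscle and skin and lies head to head on the X chromosome, 1308 bases apart. Col4a5 (141475385 to 141689234) had 33.6, 32.9 and 33.7 FPKM with palovarotene, against 24.6, 23.8 and 21.4 FPKM with BMP4 (0.51, SE 0.0574, adjusted p = 0.000516). Col4a6 (141165403 to 141474076) had 5.84, 5.86 and 5.68 FPKM with palovarotene and 4.39, 3.91 and 3.90 FPKM with BMP4 (0.42, SE 0.0569, adjusted p = 0.00114). Each type IV pair thus moved in 1 direction in both of its genes, and the 2 pairs moved in opposite directions. The libraries kept strand, but no source used here states whether counting did, which leaves the values of genes with shared bases on opposite strands uncertain.

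Type VIII collagen, a short-chain network of vessel walls and of the cornea, also split between its chains. Col8a1 had 57.4, 55.3 and 57.8 FPKM with palovarotene, against 67.6, 75.8 and 68.4 FPKM with BMP4 (-0.31, SE 0.0537, adjusted p = 0.00371). Col8a2 had 3.35, 3.31 and 2.78 FPKM with palovarotene and 2.30, 2.46 and 2.47 FPKM with BMP4 (0.28, SE 0.0703, adjusted p = 0.0175). Neither overlapped between groups. The rise of Col8a2 did not pass without palovarotene replicate 1 (0.24, adjusted p = 0.0625) or replicate 2 (0.25, adjusted p = 0.059). Col10a1, the network collagen of hypertrophic cartilage, was too low to be tested: it had 0.057, 0.0659 and 0.0641 FPKM with palovarotene, against 0.792, 0.699 and 0.679 FPKM with BMP4. It is listed only because of its BMP4 libraries.

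All 3 tested chains of the beaded-filament class fell, and these are the 3 main chains of collagen VI, a microfilament that links cells and basement membranes to the surrounding matrix. Over all genes, 23.8% were called lower. Col6a1 (chromosome 10, 76708792 to 76726168) had 98.0, 103 and 98.7 FPKM with palovarotene, against 201, 189.9 and 198 FPKM with BMP4 (-0.97, SE 0.0406, adjusted p = 5.04e-06). Col6a2 (chromosome 10, 76595762 to 76623630) had 23.3, 23.7 and 22.0 FPKM with palovarotene and 59.0, 51.9 and 55.8 FPKM with BMP4 (-1.24, SE 0.0577, adjusted p = 7.91e-06). Col6a3, the longest of the 3 chains (chromosome 1, 90765923 to 90843971), had 4.83, 4.74 and 4.98 FPKM with palovarotene, against 19.5, 17.2 and 17.8 FPKM with BMP4 (-1.71, SE 0.0578, adjusted p = 1.96e-06). No library overlapped in any of the 3, and mean FPKM was 1.97-fold, 2.42-fold and 3.75-fold lower with palovarotene. Col6a1 and Col6a2 point the same way on chromosome 10 with 85161 bases between them, while Col6a3 is on another chromosome. Col28a1, a related beaded-filament chain, was listed but not tested, at 0.0539, 0.0231 and 0.0605 FPKM with palovarotene and 0.592, 0.499 and 0.585 FPKM with BMP4. Like Col10a1, it is listed only because of its BMP4 libraries.

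The collagens that sit on fibrils or in basement membranes held the largest rise of all members and otherwise mostly fell: 1 was higher, 4 were lower and 2 were not called. In this class 71.4% were called, against 43.0% of all genes. Col14a1, a fibril-associated collagen with interrupted triple helices (FACIT) found in skin and tendon (chromosome 15, 55307750 to 55520803), had 92.3, 96.1 and 98.8 FPKM with palovarotene, against 18.1, 18.1 and 16.5 FPKM with BMP4 (2.38, SE 0.0516, adjusted p = 3.36e-07). By size of rise it ranked 30 among the 11584 tested genes. Its close relative Col12a1 went the other way, with 25.4, 26.7 and 28.05 FPKM with palovarotene and 32.5, 35.1 and 31.8 FPKM with BMP4 (-0.30, SE 0.0562, adjusted p = 0.00531). Col16a1, a further fibril-associated chain, had 17.6, 18.7 and 16.5 FPKM with palovarotene, against 33.2, 25.9 and 27.8 FPKM with BMP4 (-0.68, SE 0.0947, adjusted p = 0.00134). Col9a3, a chain of the cartilage FACIT type IX, stayed near the listing level, with 0.352, 0.378 and 0.249 FPKM with palovarotene and 1.197, 0.706 and 0.857 FPKM with BMP4 (-0.53, SE 0.0983, adjusted p = 0.005). It was listed and tested only because of its BMP4 libraries. In all 4 FACIT genes the groups were apart, 1 above and 3 below, against 54.9% of all genes. Col9a3 shares 234 annotated exon bases with Tcfl5 on the opposite strand, and its change was -1.24 with a pseudocount of 0.1, since a pseudocount of 1 compresses low values.

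Col18a1 encodes the basement-membrane proteoglycan that releases endostatin, and it fell (chromosome 10, 77052178 to 77166548). It had 4.31, 4.48 and 4.23 FPKM with palovarotene, against 14.1, 12.3 and 12.6 FPKM with BMP4 (-1.39, SE 0.0624, adjusted p = 6.91e-06). All palovarotene libraries lay below all BMP4 libraries. Col15a1, its closest relative, was 0.535, 0.383 and 0.449 FPKM with palovarotene and 0.681, 0.606 and 0.495 FPKM with BMP4, and overlapped (-0.13, SE 0.066, adjusted p = 0.155). Col7a1, the anchoring-fibril collagen of skin, was 3.20, 4.03 and 3.24 FPKM with palovarotene, against 3.64, 2.51 and 2.64 FPKM with BMP4 (0.20, SE 0.125, adjusted p = 0.243). Without BMP4 replicate 1, the highest of its group, Col7a1 passed at 0.32 (adjusted p = 0.039).

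Genes of the 16 modifying enzymes, chaperones and enhancers were called higher in 5 cases and lower in 5 (62.5% called, against 43.0% of all genes). No class share was tested against that of all genes. The prolyl 4-hydroxylases, whose catalytic subunits P4ha1, P4ha2 and P4ha3 make the hydroxyproline that stabilizes the helix, gave 1 rise, 1 fall and 1 gene without a call. P4ha1 (chromosome 10, 59323296 to 59373304) had 52.9, 49.5 and 47.6 FPKM with palovarotene, against 29.6, 28.6 and 30.2 FPKM with BMP4 (0.74, SE 0.0509, adjusted p = 4.76e-05). P4ha3 (chromosome 7, 100285520 to 100319699) had 19.5, 19.4 and 19.2 FPKM with palovarotene and 30.8, 31.9 and 33.0 FPKM with BMP4 (-0.69, SE 0.0424, adjusted p = 2.81e-05). P4ha1 was thus higher and P4ha3 lower in every palovarotene library. P4ha2 had 25.3, 26.1 and 24.8 FPKM with palovarotene, against 24.5, 23.7 and 24.1 FPKM with BMP4, a separation without overlap that did not pass (0.07, SE 0.0404, adjusted p = 0.188).

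Prolyl 3-hydroxylation modifies few residues and is carried out by P3h1 in a complex with Crtap; P3h2 acts mainly on type IV chains, and P3h3 and P3h4 work with the lysyl hydroxylase Plod1. P3h2 (chromosome 16, 25959288 to 26105784) had 0.192, 0.215 and 0.284 FPKM with palovarotene, against 1.604, 1.74 and 1.596 FPKM with BMP4 (-1.11, SE 0.0535, adjusted p = 9.43e-06). The ratio of means was 7.15-fold, and the change was -2.41 with a pseudocount of 0.1. P3h2 was listed and tested only because of its BMP4 libraries. The antisense gene Gm4524 shares 1055 annotated exon bases with P3h2. P3h4 had 39.7, 37.7 and 35.8 FPKM with palovarotene and 48.7, 47.9 and 48.4 FPKM with BMP4 (-0.35, SE 0.0468, adjusted p = 0.00113), without overlap. It lies head to head with Fkbp10, 860 bases away, which was not called. P3h1 ranged from 17.0 to 20.7 FPKM with palovarotene and from 10.3 to 17.0 FPKM with BMP4 and overlapped. It passed at 0.57 (SE 0.186, adjusted p = 0.0456) but not in any of 5 refits without 1 library (adjusted p 0.069 to 0.133), all except that without BMP4 replicate 1. P3h3 (-0.26, adjusted p = 0.137) and Crtap (0.09, adjusted p = 0.247) did not pass.

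Lysyl hydroxylases prepare lysines for sugars and crosslinks, and Plod2 acts on the telopeptides at the chain ends. Plod2 (chromosome 9, 92542223 to 92608428) had 43.4, 41.3 and 40.9 FPKM with palovarotene, against 30.3, 31.9 and 29.4 FPKM with BMP4 (0.44, SE 0.0476, adjusted p = 0.000397). The groups were well apart. Plod1, which hydroxylates the helical part, had 40.0, 42.2 and 38.5 FPKM with palovarotene and 37.3, 31.3 and 34.9 FPKM with BMP4 (0.22, SE 0.0706, adjusted p = 0.0437). It kept its call in 5 of 13 settings, and without any library other than BMP4 replicate 1 the adjusted p was 0.063 to 0.128. Plod3, which also adds glucose, had 34.4, 34.9 and 34.5 FPKM with palovarotene, against 39.6, 35.6 and 40.0 FPKM with BMP4 (-0.15, SE 0.0534, adjusted p = 0.0665). Its groups did not overlap, and it passed without BMP4 replicate 2, the lowest of its group (-0.20, adjusted p = 0.0101). Colgalt1, which adds galactose to hydroxylysine, had 21.9, 21.0 and 20.5 FPKM with palovarotene and 26.3, 23.4 and 24.2 FPKM with BMP4 (-0.21, SE 0.0562, adjusted p = 0.0221). That fall did not pass without palovarotene replicate 2 (-0.21, adjusted p = 0.0644) or replicate 3 (-0.19, adjusted p = 0.0804). Colgalt1 and Plod3 share annotated exon bases with Unc13a (495) and Znhit1 (604) on the opposite strands.

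Serpinh1 encodes HSP47, the collagen-specific chaperone of the endoplasmic reticulum (chromosome 7, 99345376 to 99353239). It had 176, 148 and 187 FPKM with palovarotene, against 117, 145 and 124 FPKM with BMP4 (0.40, SE 0.108, adjusted p = 0.0234). The groups did not overlap, but the highest BMP4 library, at 145, came close to the lowest palovarotene library, at 148. Without palovarotene replicate 1 or 3, or BMP4 replicate 1 or 3, the change was 0.33 to 0.37 and did not pass (adjusted p 0.0633 to 0.0744). Fkbp10, a prolyl isomerase that assists collagen folding and Plod2, averaged 77.7 ± 1.97 FPKM with palovarotene and 80.2 ± 2.08 FPKM with BMP4 (SD, n = 3 each), and was not called (adjusted p = 0.405).

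The 2 enhancers of C-propeptide removal behaved differently. Pcolce2 (chromosome 9, 95637601 to 95698096) had 17.3, 16.8 and 16.1 FPKM with palovarotene, against 88.9, 88.6 and 85.04 FPKM with BMP4 (-2.32, SE 0.0436, adjusted p = 2.65e-07). This was a 5.22-fold lower mean and ranked 28 among all tested genes by size of fall. Pcolce had 104, 109.8 and 104 FPKM with palovarotene and 105, 96.3 and 110.2 FPKM with BMP4 (0.03, SE 0.0578, adjusted p = 0.715), with overlapping groups. Pcolce shares 224 annotated exon bases with Fbxo24 on the same strand.

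The sources used here do not say how gene values were made from transcript values. They appear to divide the fragments of a gene by the length of all its annotated exons, used or not, which is inferred from the values and does not hold for every member. In 26 of 38 members with a matching GENCODE vM21 model, the listed transcripts and that length gave the deposited gene value within 5%, and in the other 12 they did not. The sum of listed transcript FPKM was between 0.562 and 2.35 times the gene value, so the order of levels between genes depends on which value is taken. Col1a2, whose annotated exons cover 12426 bases but whose main transcript has 5348, is the member raised most by transcript sums. Ratios of chains were therefore computed with both values.

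Ratios within each library show how the chains of a trimer moved against each other. Col1a1 over Col1a2 was 3.99, 4.09 and 4.04 with palovarotene and 3.10, 2.99 and 3.20 with BMP4; by transcript sums it was 1.91 ± 0.0189 with palovarotene and 1.45 ± 0.0536 with BMP4 (SD, n = 3 each). The usual type I trimer holds more of the Col1a1 product than of the Col1a2 product. Col6a3 over Col6a1 was 0.0493, 0.0462 and 0.0505 with palovarotene, against 0.0971, 0.0908 and 0.0901 with BMP4. Col6a1 over Col6a2 was 4.21, 4.33 and 4.49 in the palovarotene libraries and 3.403, 3.66 and 3.55 in the BMP4 libraries. Collagen VI thus fell in graded steps, Col6a3 most and Col6a1 least. Col4a1 over Col4a2 was 1.53 ± 0.0213 with palovarotene and 1.84 ± 0.0438 with BMP4, and Col8a1 over Col8a2 was 18.2 ± 2.28 with palovarotene, against 29.3 ± 1.55 with BMP4. Relative to Col5a1, Col11a1 stood at 0.0158 ± 0.00134 with palovarotene and 0.0493 ± 0.00401 with BMP4. Relative to Col1a1, Col3a1 stood at 0.213 ± 0.00569 with palovarotene and 0.271 ± 0.0128 with BMP4, and Col5a1 at 0.111 ± 0.00103 with palovarotene and 0.127 ± 0.00537 with BMP4. Col5a1 over Col5a2 was 0.692 ± 0.0149 with palovarotene, against 0.614 ± 0.02 with BMP4. The groups did not overlap in any of the 9 ratios, on gene values or on transcript sums. Among single genes tested, the groups of 54.9% did not overlap. The 9 ratios are not separate results, since Col1a1, Col5a1 and Col6a1 each enter more than 1 of them. A two-sided exact permutation test of 3 against 3 libraries cannot go below p = 0.1, and each ratio reached that value (adjusted over the 9 ratios, p = 0.1).

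**Figure D3:**
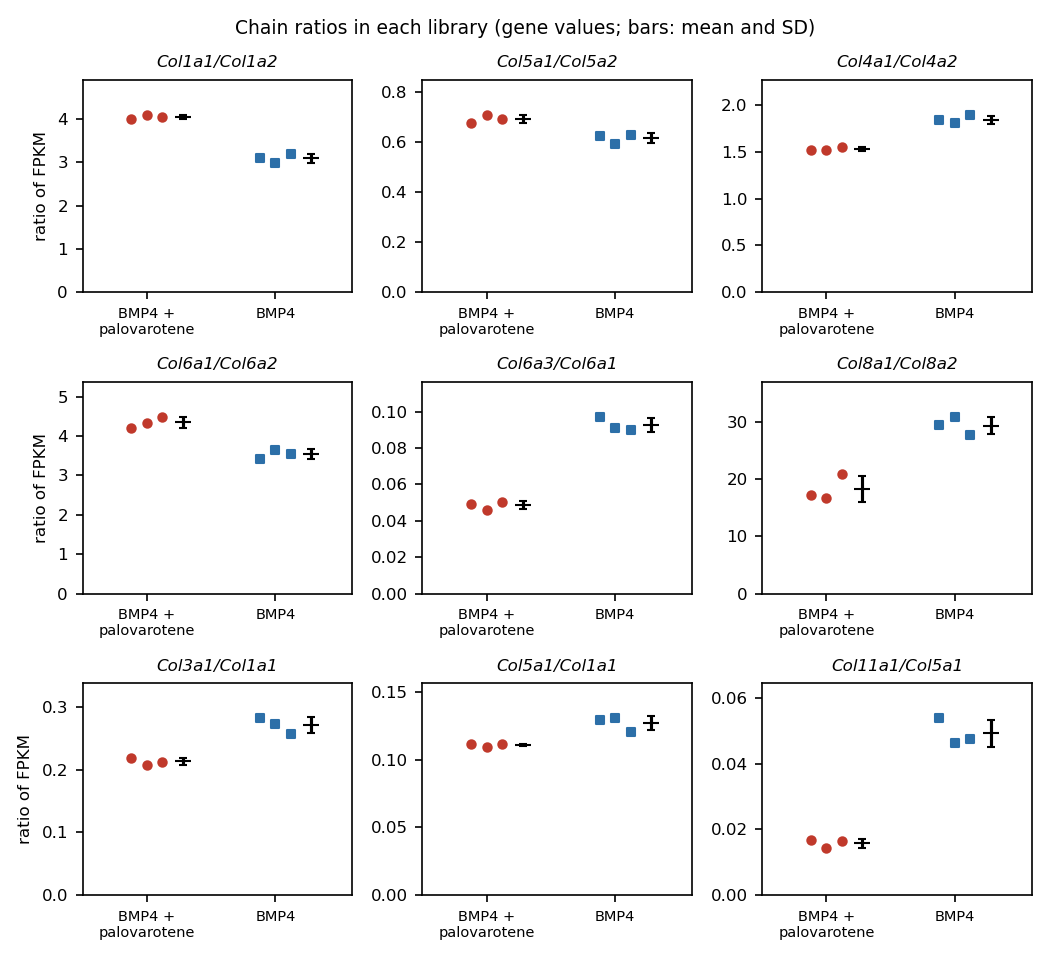
The 9 chain ratios in each library from gene FPKM, each axis from 0. Red circles are BMP4 + palovarotene, blue squares are BMP4, and black marks are the mean and SD of 3 libraries. The groups are apart in every panel, with Col11a1 over Col5a1 lowest relative to BMP4 at 0.0158 with palovarotene, against 0.0493 with BMP4.

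Summed over all 25 listed chains, collagen FPKM was 1642 ± 39.5 with palovarotene and 1600.4 ± 79.3 with BMP4 (SD, n = 3 each; two-sided exact permutation p = 0.5), while its make-up shifted. Fibrillar chains made up 72.7, 73.2 and 72.8% of the sum with palovarotene, against 65.1, 63.7 and 64.5% with BMP4. Col1a1 alone was 41.6 ± 0.528% with palovarotene and 32.7 ± 0.847% with BMP4, or 34.6% with palovarotene and 26.9% with BMP4 by transcript sums. Beaded-filament chains held 7.77 ± 0.0829% with palovarotene, against 16.9 ± 0.318% with BMP4, and network chains 10.3 ± 0.257% with palovarotene, against 12.6 ± 0.492% with BMP4. Associated chains held 9.06 ± 0.173% with palovarotene and 6.06 ± 0.184% with BMP4, of which Col14a1 was 5.83% with palovarotene and 1.10% with BMP4. Without Col1a1 the remaining chains summed to 945, 974 and 957 FPKM with palovarotene, against 1135, 1045 and 1052 FPKM with BMP4. The enzyme class summed to 725 ± 14.8 FPKM with palovarotene and 741 ± 1.2 FPKM with BMP4 (exact p = 0.2), a difference whose sign depends on the scaling. The class sums other than that of the enzymes did not overlap between groups and reached the smallest possible p of 0.1.

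**Figure D4:**
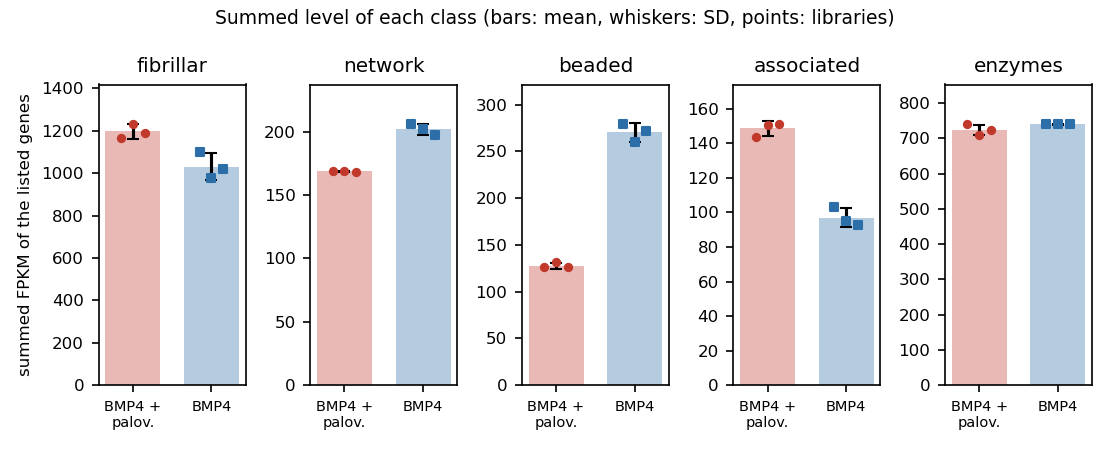
Summed FPKM of each class; bars are means, whiskers SD and points the 3 libraries of BMP4 + palovarotene (red circles) and of BMP4 (blue squares), each axis from 0. Fibrillar and associated sums lie higher with palovarotene, network and beaded sums lower, and the enzyme sums overlap.

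Transcripts were examined where the gene value could hide a shift. The transcript table lists 79 transcripts of 40 members, 21 with 1 transcript and 19 with several. Of 74 tested, 10 were higher and 20 lower, against 6.49% and 6.42% of 21101 transcripts of all genes, and no member had transcripts called in opposite directions. The rise of Col4a5 was seen in Col4a5-202, which had 21.0, 17.3 and 20.8 FPKM with palovarotene, against 9.58, 8.26 and 7.74 FPKM with BMP4 (1.12, adjusted p = 0.00303 over all transcripts). Col4a5-201 had 12.8, 16.1 and 12.9 FPKM with palovarotene and 14.9, 15.3 and 13.6 FPKM with BMP4, and was not called (-0.07, adjusted p = 0.741). Its share of the gene's listed transcripts was 35.5 to 46.02% with palovarotene, against 55.5 to 58.3% with BMP4, without overlap. In Col12a1 the fall was steepest in Col12a1-204, with 5.46, 4.002 and 4.44 FPKM with palovarotene and 14.9, 17.2 and 15.3 FPKM with BMP4 (-1.58, adjusted p = 0.00118). The main transcript Col12a1-201 changed by -0.28 (adjusted p = 0.0394), and the share of Col12a1-204 was 10.3 to 14.2% with palovarotene, against 26.8 to 28.2% with BMP4. Col16a1-201 fell by 0.85 (adjusted p = 0.0263), whereas Col16a1-210 did not pass (0.13, adjusted p = 0.584). By the length rule inferred above, the listed Col16a1 transcripts gave only 0.355 to 0.443 of its gene value. Shares among them therefore leave much of the Col16a1 signal out. The 3 listed transcripts of Col14a1 all rose, by 1.48 to 2.43, and the 2 of Col6a2 fell by 1.2 and 1.35. The difference in change between transcripts of a gene was not tested.

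Some splits between transcripts varied within a group. Pcolce-201 held 71.4% of the listed Pcolce transcripts in palovarotene replicate 1 but 11.9 and 11.7% in replicates 2 and 3, and 3.79, 14.8 and 12.5% in the BMP4 libraries. P4ha2-202 had 11.4 FPKM in palovarotene replicate 2 but 0.529 and 1.63 FPKM in the other 2, against 0.972 to 2.55 FPKM with BMP4. Serpinh1-203 ranged from 22.7 to 75.0 FPKM with palovarotene and from 17.9 to 76.02 FPKM with BMP4, and P3h1-203 was listed above 0 in BMP4 replicate 2 alone. The values of these transcripts overlapped between groups, and among all transcripts of these 4 genes only Serpinh1-201 was called (0.49, adjusted p = 0.0287).

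**Figure D5:**
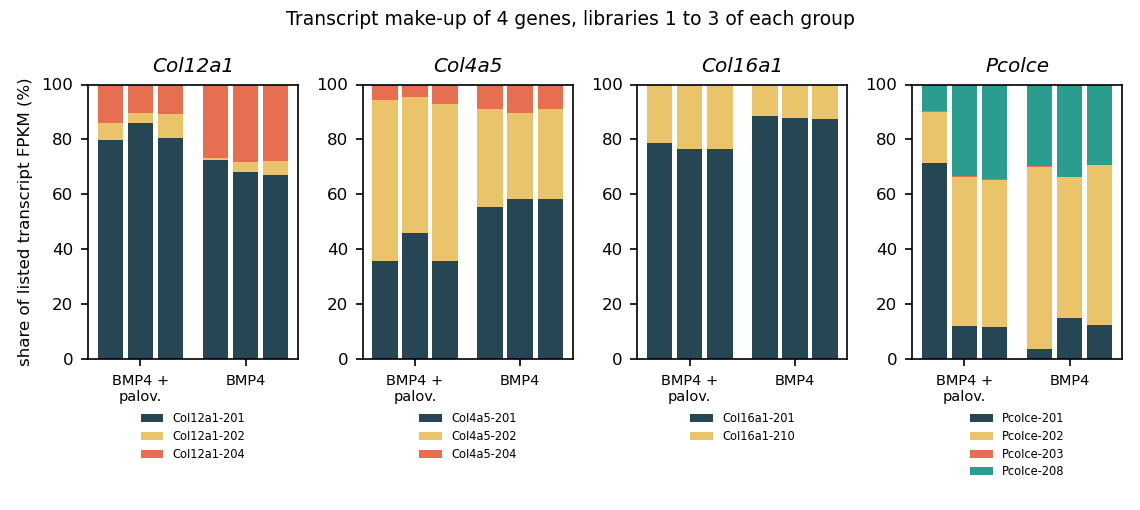
Share of each listed transcript in the summed transcript FPKM of its gene (percent), libraries 1 to 3 of BMP4 + palovarotene left of those of BMP4. Col4a5-202, Col12a1-201 and Col16a1-210 hold larger shares in every palovarotene library than in any BMP4 library, while in Pcolce the share of Pcolce-201 is 71.4% in 1 palovarotene library and at most 14.8% in the other 5 libraries. The listed Col16a1 transcripts account for only part of its gene value.

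Genes around the collagens were taken from 7 lists by role, of which 65 genes were tested: 24 were higher and 21 lower. Over all genes tested, 19.1% were higher, 23.8% lower and 43.0% called in either direction, the background for each list that follows. Among 3 proteases that trim procollagen ends, 2 were higher (66.7% called). Adamts14, an N-propeptidase, had 2.49, 2.81 and 2.72 FPKM with palovarotene and 1.01, 0.820 and 0.975 FPKM with BMP4 (0.93, adjusted p = 4.58e-05). Adamts2, the main enzyme of that reaction, changed by 0.16 (adjusted p = 0.0268) and did not pass in the refits without palovarotene replicate 1, 2 or 3 or BMP4 replicate 3 (0.13 to 0.17, adjusted p 0.0672 to 0.0901). Bmp1, the C-propeptidase that Pcolce and Pcolce2 enhance, had 32.0, 36.1 and 33.1 FPKM with palovarotene, against 35.6, 32.5 and 33.2 FPKM with BMP4, and was not called (0.00, adjusted p = 0.992). Of this protease and its 2 enhancers, Pcolce2 was called lower, and Bmp1 and Pcolce were not called.

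Of 25 genes for procollagen folding and export, 10 were higher and 4 lower (56% called, against 43.0% of all genes). Hspa5, the BiP chaperone, had 106, 204 and 107 FPKM with palovarotene, against 77.2, 72.7 and 73.0 FPKM with BMP4 (0.83, adjusted p = 0.0298). Palovarotene replicate 2 stood apart; without it the change was 0.52 (adjusted p = 0.000797), and without any 1 BMP4 library it did not pass (0.81 to 0.86, adjusted p 0.061 to 0.0791). Fkbp11, a folding isomerase, changed by 0.35 (adjusted p = 0.0029), Pdia3, a disulfide isomerase, by 0.31 (adjusted p = 0.0006), and Trappc2, a transport factor for procollagen, by -0.31 (adjusted p = 0.00458). P4hb, the partner subunit of the prolyl 4-hydroxylases, had 384, 384 and 371 FPKM with palovarotene and 405, 373 and 389 FPKM with BMP4, and was not called (-0.04, adjusted p = 0.543). The count of higher genes was 4 without palovarotene replicate 1, 6 without its replicate 3 and 5 without BMP4 replicate 3. Over all genes, these refits gave 1692, 1737 and 1907 higher, in place of 2217. The lower genes numbered 2 without any 1 palovarotene library, without BMP4 replicate 3 and with median-ratio scaling. Over all genes, these settings gave 2089 to 2413 lower, in place of 2759. The 56% is from the main fit, and the share called depended on single libraries. With a block for replicate number, Mia3, Sec13, Sec24d, Sec31a, Kdelr2 and Mbtps2 lost their higher calls. Fkbp9 and Tmem38b then lost their lower calls.

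In the supply of proline and ascorbate, 1 of 5 genes was called (20%, against 43.0% of all genes). So few genes do not set these shares apart. Pycr1, which makes proline in mitochondria, had 7.10, 6.58 and 6.19 FPKM with palovarotene, against 3.13, 3.83 and 3.76 FPKM with BMP4 (0.74, adjusted p = 0.000425). A second gene, Slc23a2, passed without palovarotene replicate 2 (0.28, adjusted p = 0.0423) and under both other scalings (0.25 and 0.26).

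Collagen receptors gave 1 rise and 2 falls in 5 tested genes (60% called, against 43.0% of all genes). Mrc2, the endocytic receptor that takes up collagen, had 61.0, 63.5 and 61.5 FPKM with palovarotene and 27.6, 24.4 and 25.9 FPKM with BMP4 (1.22, adjusted p = 5.51e-06). The collagen-binding kinases Ddr1 and Ddr2 changed by -0.50 (adjusted p = 0.000302) and -0.28 (adjusted p = 0.0077). Itga2, an integrin chain for collagen, was too low to be tested, with 0.727, 0.713 and 0.836 FPKM with palovarotene and 0.121, 0.207 and 0.135 FPKM with BMP4. It is listed only because of its palovarotene libraries.

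Collagen degradation held 2 rises and 5 falls in 8 genes (87.5% called, against 43.0% of all genes). Fap, a membrane protease that cleaves denatured collagen, had 8.26, 7.74 and 7.79 FPKM with palovarotene, against 0.610, 0.545 and 0.594 FPKM with BMP4 (2.50, adjusted p = 2.83e-07). Mmp14, a membrane collagenase, had 43.7, 45.3 and 43.9 FPKM with palovarotene and 79.2, 76.7 and 77.7 FPKM with BMP4 (-0.80, adjusted p = 7.57e-06). Timp1, an inhibitor of such enzymes, changed by -0.89 (adjusted p = 0.000236) and Ctsk, a collagen-cleaving cathepsin, by -0.68 (adjusted p = 0.000562). Mmp2, a gelatinase, changed by 0.35 (adjusted p = 0.000709). The inhibitor genes Timp2 and Timp3 changed by -0.21 (adjusted p = 0.00506) and -0.30 (adjusted p = 0.0322). Timp3 did not pass without palovarotene replicate 1 or 2 or BMP4 replicate 3 (-0.34 to -0.27, adjusted p 0.0513 to 0.0957), or with median-ratio scaling (-0.27, adjusted p = 0.0591). Of the protease genes, Fap and Mmp2 were thus higher and Mmp14 and Ctsk lower, Mmp9 was not called, and all 3 inhibitor genes were lower.

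All 5 lysyl oxidases, which start collagen and elastin crosslinks, were called, 4 higher and 1 lower, against 43.0% of all genes. Loxl2 had 133, 129 and 139 FPKM with palovarotene, against 25.4, 31.1 and 27.4 FPKM with BMP4 (2.23, adjusted p = 2.01e-06). Lox had 92.1, 88.1 and 96.5 FPKM with palovarotene and 242, 291 and 249 FPKM with BMP4 (-1.49, adjusted p = 1.21e-05). Loxl4 changed by 1.03 (adjusted p = 3.29e-05) and Loxl1 by 0.70 (adjusted p = 8.39e-05). The sum of the 5 was 382 to 396 FPKM with palovarotene and 373 to 418 FPKM with BMP4, so the family's total overlapped between groups while its members changed places. Loxl3 lost its call in 5 of the 6 refits without 1 library, all but that without BMP4 replicate 1.

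Of 14 genes for proteins that organize fibrils, 4 were higher and 9 lower (92.9% called, against 43.0% of all genes). The lower call of Dcn was lost in the refits given above, and with median-ratio scaling, no variance trend or a block for replicate number. Dpt, dermatopontin, had 0.383, 0.322 and 0.331 FPKM with palovarotene, against 18.5, 21.4 and 20.1 FPKM with BMP4 (-3.96, adjusted p = 1.54e-07). Dpt was listed and tested only because of its BMP4 libraries, so its place among the lower genes is not independent of that filter. Ogn, the small leucine-rich proteoglycan osteoglycin, had 45.8, 43.1 and 44.8 FPKM with palovarotene and 2.63, 3.11 and 2.68 FPKM with BMP4 (3.58, adjusted p = 2.04e-07). Ecm1, a secreted matrix glycoprotein, had 1092, 1174 and 1149 FPKM with palovarotene, against 168, 156 and 176 FPKM with BMP4 (2.77, adjusted p = 2.81e-07). Fmod, fibromodulin, which binds type I collagen, had 5.47, 4.94 and 4.75 FPKM with palovarotene and 32.1, 36.5 and 34.4 FPKM with BMP4 (-2.54, adjusted p = 7.39e-07). Genes of fibril-organizing proteins thus moved in both directions, as the FACIT genes Col14a1 and Col12a1 did.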

How the data were processed

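Polyadenylated RNA of 6 libraries was analysed, 3 of BMP4 + palovarotene and 3 of BMP4. Per the submitters' processing notes, StringTie, HISAT2, cutadapt and FastQC were run on the build GRCm38; versions, roles and settings were not given in the sources used here. Gene by gene and transcript by transcript, the authors deposited an FPKM value, per the file headers. Since these hold no counts, the depth is unknown and intervals from counting cannot be given. Columns were tied to samples by the sample descriptions.

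Each whole table was fitted on the log2(FPKM + 1) scale (limma 3.58.1, R 4.3.3, trended variance), keeping a row if its mean reached 0.5 FPKM and adjusting by Benjamini-Hochberg. On simulated libraries of the same size, 88.1% of genes changed 1.5-fold, and 100% of those changed 2-fold or 4-fold, were recovered. These changes were placed only in genes well above the filter of 0.5 FPKM, as shifts on the log2(FPKM + 1) scale. The recovery therefore does not apply to low genes, whose folds the pseudocount compresses. Ratios and sums were compared by exact permutation. Same-numbered libraries did not deviate together (correlations -0.06, -0.14 and -0.02), so no pairing was used.

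Members and lists were chosen with earlier results of these data known. In each class the called, non-overlapping members with the largest change, the main chains and enzymes, and the untested members are given by library, and the other members more briefly; of each related list, up to 4 called genes are named. P4hb, Bmp1, Itga2, Slc23a2, Loxl3, Mmp2, Mmp9, Timp2 and Timp3 were named after their values were seen. The transcript sums and the settings of the related lists were also chosen after seeing the data. Motifs and promoter windows come from RefSeq on GRCm38.p6, gene models from GENCODE vM21.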

Additional observations from a re-analysis of the deposited data

How the results depend on the processing

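Refits changed the pseudocount, the filter on low values, the scaling, the variance model or the replicate block, or left out 1 library. Of 39 members, 32 were tested in all 13 settings and 7 low ones in 11 or 12. Over the settings that tested them, 30 of 39 members and 22 of the 28 called kept their call, and none reversed. Members called higher ranged from 6 to 12, and lower from 16 to 18, when 1 library was left out. Over all genes, the same refits gave 1692 to 2177 higher and 2089 to 2663 lower, and a mean of at least 5 FPKM gave 1419 higher and 1692 lower, with fewer genes tested. Over all transcripts, leaving out 1 library gave 741 to 1197 higher and 711 to 1144 lower. The replicate block, whose same-numbered libraries did not deviate together, gave 8 members higher and 17 lower. It gave 11 member transcripts lower in place of 20, and 402 higher and 313 lower over all transcripts. The cause was not tested. The log2 ratio of Col6a3 over Col6a1 was -0.996 by transcript sums in place of -0.93, and that of the network sum -0.22 under median-ratio scaling in place of -0.26. The enzyme sum, at -0.03, reversed to 0.0031 under median-ratio scaling and was -0.0033 by transcript sums. Median-ratio scaling shifted the median change of all genes by under 0.1. Among the related genes, leaving out 1 library gave 16 to 23 higher and 17 to 20 lower of 64 to 66 tested, and none reversed. Depth is unknown, so no limit for low genes is given.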

Other observations

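Among marker genes of other cell types, Alpl, an osteoblast phosphatase gene, had 73.7, 74.3 and 71.2 FPKM with palovarotene, against 0.412, 0.420 and 0.464 FPKM with BMP4. Alpl was listed and tested only because of its palovarotene libraries. Bglap, the osteocalcin gene, had 2.40, 2.01 and 1.52 FPKM with palovarotene and 9.18, 9.97 and 12.4 FPKM with BMP4. Sox9, the cartilage regulator gene, had 2.26, 2.28 and 2.28 FPKM with palovarotene, against 4.14, 4.67 and 4.32 FPKM with BMP4. Of the 7 chondrocyte markers, 2 are listed and both were lower, at sums of 2.46 to 2.59 FPKM with palovarotene and 5.17 to 5.51 FPKM with BMP4. Matn3, which is listed beside Sox9, was listed and tested only because of its BMP4 libraries. Of 6 osteoblast markers, 3 are listed, 1 higher and 2 lower. Of 5 leukocyte markers, 2 are listed, Cd68 lower and Lyz2 not called, and none of 4 epithelial markers is analysed here. The part of these shifts in the collagen values was not tested.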
